A study of Mus musculus with 8 samples.

Results

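Activins are dimers of the inhibin β subunits, and inhibins join a β subunit to the α subunit. In the pituitary gland, activins signal in gonadotropes through type II and type I serine/threonine kinase receptors and SMAD proteins to increase *Fshb* transcription. Inhibins oppose this by occupying the type II receptors together with a co-receptor, and follistatins bind activins and keep them from their receptors. The 10 genes described here encode the subunits (*Inha*, *Inhba* and *Inhbb*), the binding proteins (*Fst* and *Fstl3*), the type I receptor *Acvr1b*, the type II receptors *Acvr2a* and *Acvr2b*, and the co-receptors *Tgfbr3* and *Tgfbr3l*. They were chosen by symbol among the 55523 entries of the count table, and each symbol had 1 entry.

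The cells were EGFP-positive pituitary cells of Ad4BP-BAC-EGFP mice, which carry EGFP on a bacterial artificial chromosome of *Nr5a1*, the gene for Ad4BP/SF-1. They were sorted from 4 male and 4 female samples, all of the same transgenic genotype, and the age of the animals, the oestrous stage of the females and the number of animals in a sample are not given in the sources used here. P-values therefore measure the spread between these samples, which may be partly technical. The study left male replicate 1 out of its analysis, so it is shown apart, and the comparison of the sexes used the other 3 males and the 4 females.

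The total count was between 18774578 and 31302588 per sample. Levels are given in CPM, counts relative to a library size that was scaled with edgeR's TMM factors, and 3 counts corresponded to between 0.0921 and 0.146 CPM, a limit that covers counting error only. The 5 gonadotrope markers *Lhb*, *Fshb*, *Cga*, *Gnrhr* and *Nr5a1* had at least 3 counts in each sample, but male replicate 1 had only 16.3 CPM of *Nr5a1*, while the other 7 samples had 584 to 1266 CPM. *Lhb* was 9337 CPM in that sample, inside the 6286 to 9610 CPM of the other males. Markers of other cells were also present, and the summed somatotrope markers were between 12397 and 142305 CPM. Fewer cells of a type and less RNA per cell cannot be told apart in such bulk samples. Entries could also be far lower in a single library than in the rest. Of the 10257 entries with a median of at least 10 CPM over the 8 samples, 863 (8.41%) had a sample under 10% of that median, and *Nr5a1* in male replicate 1 was such a value. Whether it reflects the cells or the counting was not tested. Of the 8 genes of the set that reached this median, 0 had such a sample.

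*Tgfbr3l*, the inhibin B co-receptor of gonadotropes, was the most abundant gene of the set by far. In GENCODE M21 (GRCm38, the mm10 build, as for all gene positions that follow) ENSMUSG00000089736.2 spans chr8:4248214-4251423 on the plus strand. Because the cells were selected for *Nr5a1*, its promoter is printed from RefSeq (GRCm38.p6, chr8:4247964-4248263, plus strand, 250 bases before to 50 bases after the start) with matches to the NR5A1 element in capitals. The promoter of *Inhbb*, the gene that differed most clearly between the sexes, is printed for comparison (chr1:119422199-119422498, minus strand) and holds none in this window.
Tgfbr3l: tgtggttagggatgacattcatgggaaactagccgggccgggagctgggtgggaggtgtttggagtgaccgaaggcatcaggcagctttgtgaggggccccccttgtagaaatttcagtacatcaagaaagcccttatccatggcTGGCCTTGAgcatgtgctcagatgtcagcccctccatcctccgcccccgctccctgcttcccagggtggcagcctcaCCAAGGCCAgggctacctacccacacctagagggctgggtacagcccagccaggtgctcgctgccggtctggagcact
Inhbb: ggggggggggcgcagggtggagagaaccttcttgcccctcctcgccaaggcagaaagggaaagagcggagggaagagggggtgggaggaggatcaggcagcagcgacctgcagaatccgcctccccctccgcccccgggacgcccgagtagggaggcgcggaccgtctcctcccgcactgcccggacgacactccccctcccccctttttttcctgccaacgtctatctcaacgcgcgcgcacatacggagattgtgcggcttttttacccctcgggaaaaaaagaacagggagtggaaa
The letters searched, on both strands, were TCAAGGTCA, TCAAGGCCA, CCAAGGTCA and CCAAGGCCA. The *Tgfbr3l* promoter held 2 matches, TCAAGGCCA on the opposite strand at −105 to −97 and CCAAGGCCA on the gene's strand at −28 to −20, counted from the RefSeq start. It also held GCGGGGGCG, a form of the EGR1 element, on the opposite strand at −64 to −56. Promoters of the same length held an NR5A1 element in 2.22% of 32851 cases and an EGR1 element, GCGGGGGCG or GCGTGGGCG, in 3.47%. RefSeq windows were found for 8 genes of the set, and 7 of these windows have their start site within 60 bases of the GENCODE gene start. Of these 7, the 6 other than that of *Tgfbr3l* held neither element. The start site of the window listed for *Inha* lies 532 bases downstream of its gene start. This window lies wholly inside the gene, so the region upstream of *Inha* was not analysed here. A match of letters is a description of the sequence and not a binding site.

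To compare genes with each other, CPM was divided by the length of the merged exons in kb. *Tgfbr3l* was 834 ± 190 CPM per kb (SD, n = 7) and its lowest sample, at 602, lay above the highest sample of each other gene. *Tgfbr3*, which encodes betaglycan, another inhibin co-receptor, was next at 35.8 ± 6.12 CPM per kb. The subunit gene *Inhbb* was 25.0 ± 16.6 CPM per kb and *Inha* was 11.5 ± 4.47, and the samples of these neighbours overlapped. The order of *Inhbb* and *Inha* per length differed between the sexes in these 7 samples. In CPM without the length, *Inhbb* was above *Inha* in each sample. In males, *Inhbb* held rank 2 of 10 at 40.9 ± 12.8 CPM per kb (SD, n = 3) and *Inha* rank 5 at 7.09 ± 1.74. In females, *Inha* held rank 3 at 14.9 ± 1.81 CPM per kb (SD, n = 4) and *Inhbb* rank 4 at 13.1 ± 1.48. Male replicate 1, shown apart, had *Inha* at 43.6 and *Inhbb* at 30.3 CPM per kb. *Fstl3* (9.45 ± 1.79), *Acvr1b* (6.88 ± 2.54), *Acvr2a* (5.31 ± 0.448) and *Inhba* (3.01 ± 1.09 CPM per kb, SD, n = 7) followed, and each overlapped the next. *Acvr2b* was 0.657 ± 0.718 CPM per kb, a value set by female replicate 2 at 2.26 CPM per kb, and without that sample it was 0.390 ± 0.139 CPM per kb (SD, n = 6). It overlapped *Inhba* through that sample alone, and it lay apart from *Fst*, which was at most 0.230 CPM per kb in these samples. With the longest transcript as the length, *Fstl3* moved ahead of *Inha* and the other positions stayed, but the samples of *Acvr2b* and *Fst* then overlapped.

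**Figure D1:**
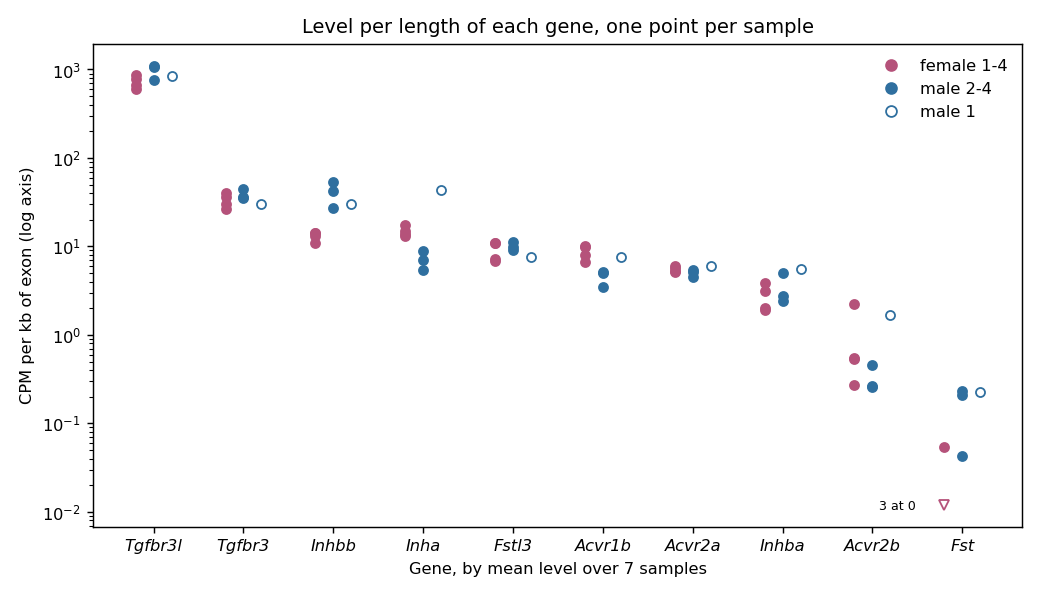
Level of each gene in CPM per kb of merged exon on a log axis, with 1 point per sample for 4 females, male replicates 2 to 4 and male replicate 1 (open). *Tgfbr3l* lies above the other genes in each sample, and *Fst* was at 0 in 3 females.

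*Inhbb* encodes the βB subunit of activin B and inhibin B and was higher in male than in female gonadotropes. The gene (ENSMUSG00000037035.5) spans chr1:119415465-119422248 on the minus strand. It was 225, 181 and 116 CPM in male replicates 2, 3 and 4, and 60.7, 59.9, 47.0 and 55.1 CPM in female replicates 1 to 4. Each of these males lay above each female, since the lowest male, at 116 CPM, was well above the highest female, at 60.7 CPM. The means were 174 ± 54.5 CPM (SD, n = 3) and 55.7 ± 6.29 CPM (SD, n = 4), a ratio of 3.12. As a log2 fold change (males over females, as for all values that follow) this was 1.61 with a standard error of 0.23, and edgeR's quasi-likelihood test over all genes gave an adjusted p of 0.0295. Of the 9 genes of the set with enough counts for edgeR's filter, *Inhbb* was the only 1 past the threshold of 0.05, and 3 had an unadjusted p below it. Among all 20152 genes tested the shares were 2.34% and 19.9%. Of the 471 genes past the threshold, males were higher for 198 (0.983%) and females for 273 (1.35%). With library size as the only scaling these were 133 and 675, and the median over all genes shifted from −0.03 to −0.24 on the log2 scale. The two-sided exact permutation test of *Inhbb* gave p = 0.0286, the smallest that 3 samples against 4 allow. *Inha* and *Acvr1b* had the same value in that test. *Inhbb* passed under edgeR with all 8 samples (adjusted p = 0.0493) but not when a sample was left out (adjusted p between 0.0547 and 0.0974), except without male replicate 4 (0.0204). Its log2 fold change then stayed between 1.39 and 1.82. The summed gonadotrope markers were also higher in these males, at 67930 to 75717 CPM beside 21488 to 34863 CPM in females, but the 5 genes did not move as a set. *Fshb* separated the sexes with males higher, *Lhb*, *Cga* and *Gnrhr* overlapped, and *Nr5a1* lay lower without overlap, at 764, 801 and 584 CPM beside 862 to 1266 CPM. Of the 4 lists of markers of other endocrine cells, the sums of somatotrope and thyrotrope markers were also higher in these males without overlap. The 2 somatotrope markers summed to 65338 to 142305 CPM in the males, while the females had 12397 to 57867 CPM. The 2 thyrotrope markers summed to 238 to 345 CPM in the males, while the females had 21.4 to 85.2 CPM, and none of these 4 markers was at 0. The somatotrope sum was almost wholly *Gh*, and *Ghrhr*, the receptor for growth hormone-releasing hormone, overlapped (8.94 to 60.7 CPM beside 2.95 to 25.7 CPM). The lactotrope marker *Prl* overlapped, with 6227 to 15681 CPM in males beside 4671 to 18125 CPM, and so did the 4 corticotrope and melanotrope markers, with 10175 to 28651 CPM beside 12455 to 22086 CPM. The part of these markers in the *Inhbb* difference was not tested.

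*Inha*, which encodes the α subunit that makes an inhibin out of a β subunit, lay the other way. The gene (ENSMUSG00000032968.4) spans chr1:75507077-75510366 on the plus strand. It was 13.1, 10.3 and 7.99 CPM in male replicates 2, 3 and 4. In female replicates 1 to 4 it was 22.3, 25.6, 20.4 and 19.5 CPM. The sexes did not overlap, and the female mean of 22.0 ± 2.67 CPM (SD, n = 4) was 2.10 times the male mean of 10.5 ± 2.57 CPM (SD, n = 3). On the log2 scale the fold change was −1.10 (standard error 0.22), and the edgeR test gave an adjusted p of 0.0513, just short of the threshold. Over the 15 alternatives the adjusted p was between 0.000219 with DESeq2 and 0.972 with all 8 samples, where male replicate 1 turned the direction. Some markers of other cells lay higher in females without overlap, as *Inha* did. The stem and folliculostellate markers *Sox9* (193 to 304 CPM in females beside 108 to 135 CPM in the 3 males) and *Sox2* (49.5 to 77.8 CPM beside 29.8 to 37.1 CPM) did so. *Aldh1a2*, *S100b* and *Cyp2f2* of the same list overlapped, and *Cyp2f2* reached 895 CPM in males beside at most 832 CPM in females. The sum of the 5 markers of that list overlapped too, with 800 to 1277 CPM beside 833 to 1148 CPM. The 6 stromal markers summed to 114 to 167 CPM in females beside 105 to 113 CPM, and of these genes *Col1a1* alone separated the sexes. The part of these markers in the *Inha* difference was not tested.

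*Inhba* (ENSMUSG00000041324.14, chr13:16011851-16031621, plus strand), which encodes the βA subunit of activin A, did not pass. It was 17.7, 31.8 and 15.4 CPM in male replicates 2 to 4, against 24.6, 12.2, 20.0 and 13.0 CPM in the females. The samples overlapped, and the log2 fold change of 0.28 (standard error 0.35) had an adjusted p of 0.732 in the edgeR test. Without male replicate 3 it was −0.10.

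**Figure D2:**
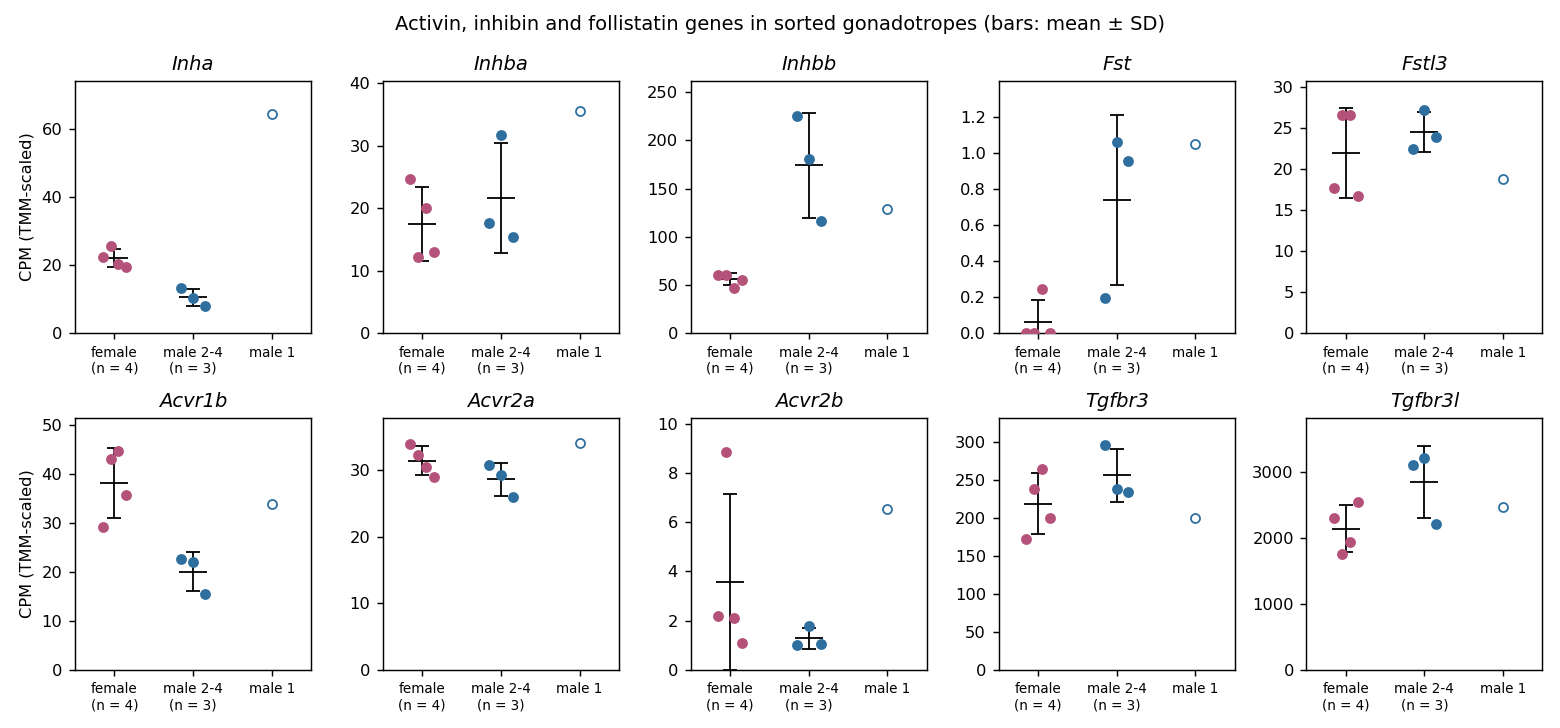
CPM of the 10 genes in each sample, with the mean and SD of 4 females and of male replicates 2 to 4 and with male replicate 1 as an open point; each axis starts at 0. *Inhbb* separates the sexes with males above females, and *Inha* and *Acvr1b* with females above male replicates 2 to 4.

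The ratio of 2 genes within a sample does not depend on the scaling between samples, and differences of its log2 do not depend on gene length. In females *Inha* and *Inhbb* were near parity per length, at log2 ratios of 0.08, 0.30, 0.32 and 0.03. In male replicates 2 to 4 the log2 ratios were −2.57, −2.61 and −2.33, so *Inhbb* exceeded *Inha* by 5.93, 6.10 and 5.04 times. The means were −2.50 ± 0.15 (SD, n = 3) in males and 0.18 ± 0.15 (SD, n = 4) in females. The difference of −2.69 is 6.45-fold and far larger than the spread between these replicates. It remained between −2.77 and −2.64 when each of these 7 samples was left out. Male replicate 1, which is not part of these values, was at 0.52, above the females. *Inhba* over *Inhbb* was also lower in males, at −3.62 ± 0.59 (SD, n = 3) against −2.32 ± 0.54 (SD, n = 4). The sexes did not overlap there, but the highest male, at −3.09, was close to the lowest female, at −2.88. The ratios of *Acvr2b* to *Acvr2a* and of *Tgfbr3* to *Tgfbr3l* overlapped between the sexes. The ratios with *Fst* were not formed, because *Fst* was at 0 in some libraries. Both separated ratios hold *Inhbb* and are not independent of its difference, so no test was made of them.

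**Figure D3:**
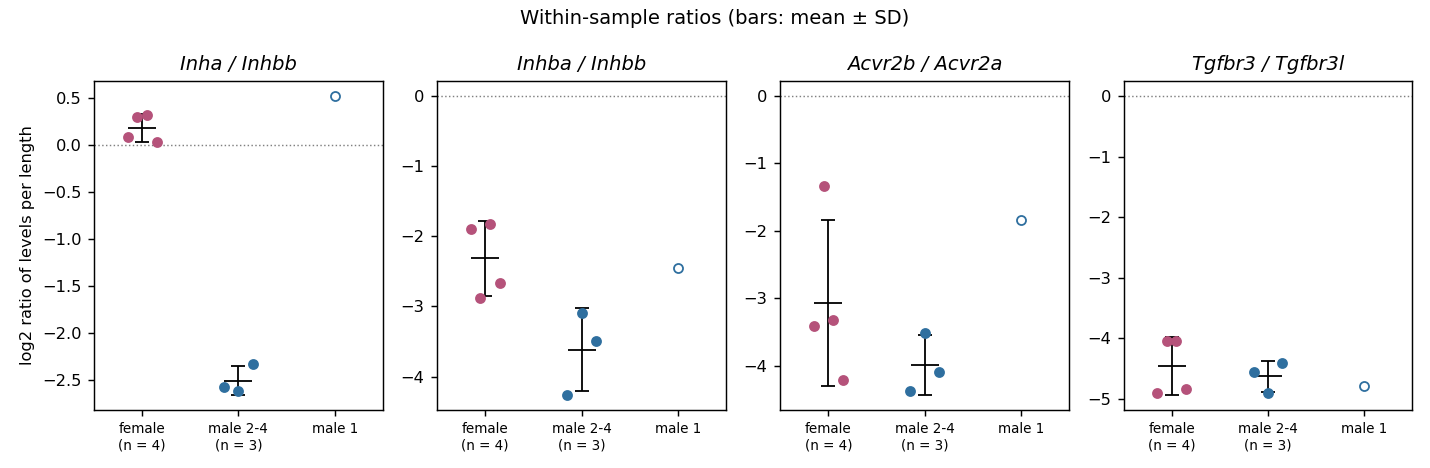
Log2 ratio of levels per length of 2 genes in each sample, with the mean and SD of 4 females and of male replicates 2 to 4, and male replicate 1 as an open point. For *Inha* over *Inhbb* the females lie between 0.03 and 0.32, male replicates 2 to 4 between −2.61 and −2.33, and male replicate 1 at 0.52.

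The binding proteins differed in level. *Fst* (ENSMUSG00000021765.9, chr13:114452290-114458951, minus strand), which encodes follistatin, was barely detected. It had 5, 28 and 21 counts in male replicates 2, 3 and 4, and 8 counts in female replicate 3 and 0 in the other 3 females, where 3 counts would be at most 0.146 CPM. This is 0.197, 1.06 and 0.954 CPM in the males and 0.246 CPM in female replicate 3. Male replicate 2 lay below female replicate 3, so the sexes overlapped (two-sided exact permutation test, p = 0.0571). *Fst* did not pass the filter on low counts, and without a filter its adjusted p from edgeR was 0.403. *Fstl3* (ENSMUSG00000020325.10, chr10:79777272-79782630, plus strand) encodes a related activin-binding protein. It was 22.5, 27.3 and 24.0 CPM in male replicates 2 to 4, and 17.7, 26.7, 26.7 and 16.8 CPM in the females. These samples overlapped, and its log2 fold change was 0.13 (standard error 0.23, adjusted p = 0.819 in the edgeR test). With library size as the only scaling it was −0.08.

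Among the receptors, *Acvr1b* lay lower in males. It encodes ALK4, the main type I receptor for activin (ENSMUSG00000000532.11, chr15:101174067-101213684, plus strand). It was 22.7, 22.0 and 15.4 CPM in male replicates 2, 3 and 4, and 29.2, 43.1, 44.7 and 35.8 CPM in the females. The sexes did not overlap, and the female mean was 1.91 times the male mean. On the log2 scale the fold change was −0.97 (standard error 0.22), and in the edgeR test it did not pass (adjusted p = 0.0735). Over the 15 alternatives the adjusted p was between 0.00310 with DESeq2 and 0.407 with all 8 samples, and it passed in 2 of them. *Sox2*, *Sox9* and the stromal sum, given above beside *Inha*, were lower in these males too. The sum of the 5 stem and folliculostellate markers overlapped, and so did the other genes of that list. The part of these markers in the *Acvr1b* difference was not tested. *Inhbb*, *Inha* and *Acvr1b* were thus the 3 genes of the 9 tested whose samples did not overlap, and over all genes tested this share was 22.3%. It was 11.5% for males higher, as in *Inhbb*, and 10.8% for females higher. The number of the set past the threshold moved with the method, and so did that of all genes. With DESeq2 these 3 genes passed, beside 11.7% of the 19985 genes with an adjusted p there, and with library size as the only scaling the same 3 passed, beside 4.01%. *Inhbb* and *Inha* passed with upper-quartile factors (2.25% of all genes), with at least 10 counts in every sample (3.64%) and with counts summed over shared loci (2.52%). *Inhbb* alone passed without a filter (0.562%) and with all 8 samples (0.342%). When a sample was left out, between 0.421% and 0.865% of all genes passed. In detail this share was 0.865%, 0.614%, 0.642% and 0.764% without female replicates 1 to 4, and 0.454%, 0.421% and 0.757% without male replicates 2 to 4.

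The type II receptors, which bind the ligand first, did not pass. *Acvr2a* (ENSMUSG00000052155.5) spans chr2:48814109-48903269 and *Acvr2b* (ENSMUSG00000061393.14) spans chr9:119402118-119434995, both on the plus strand. *Acvr2a* was 30.7, 29.2 and 25.9 CPM in the 3 males, while the females had 29.0 to 33.9 CPM, and it varied least of the set in both sexes, with an SD of 8.57% and 6.80% of the mean. Its log2 fold change was −0.17 (standard error 0.14, adjusted p = 0.589 in the edgeR test). *Acvr2b* had few counts, between 23 and 182 in the 7 samples. It was 1.02, 1.77 and 1.04 CPM in male replicates 2 to 4, and 2.18, 8.88, 2.09 and 1.08 CPM in the females. Female replicate 2 stood apart at 8.88 CPM. The log2 fold change of −1.51 (standard error 0.76, adjusted p = 0.336 in the edgeR test) rests on that library, and without it the value was −0.48.

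The co-receptors were high in both sexes. *Tgfbr3l* was 3119, 3214 and 2219 CPM in male replicates 2 to 4 and 2304, 1763, 1937 and 2556 CPM in the females. Male replicate 4 lay within the range of the females. The log2 fold change of 0.38 (standard error 0.19) did not pass in the edgeR test (adjusted p = 0.319). The locus of *Tgfbr3l* in the count table also holds *Map2k7* and *Gm49320*. *Map2k7*, a kinase gene upstream of it on the same strand, had 1249 to 2046 counts, against 36136 to 85149 counts of *Tgfbr3l*. *Gm49320* is annotated across both genes, from 4238865 to 4251423, and had exactly 1 count in each of the 8 samples. How reads of the shared exons were divided is not given in the sources used here. With the entries of the locus summed, the adjusted p was 0.341 in the edgeR test. *Tgfbr3* (ENSMUSG00000029287.14, chr5:107106570-107289629, minus strand) was 295, 238 and 233 CPM in male replicates 2 to 4, and 172, 238, 264 and 200 CPM in the females. The samples overlapped, with a log2 fold change of 0.19 (standard error 0.18, adjusted p = 0.626 in the edgeR test). With library size as the only scaling it was −0.01. *Tgfbr3* is also expressed by cells other than gonadotropes. The 6 endothelial markers summed to 477 to 636 CPM in the 3 males compared and to 459 to 599 CPM in females. The 6 stromal markers summed to 105 to 113 CPM and to 114 to 167 CPM, and each of these 12 markers had at least 3 counts in each sample. Their part in the level of *Tgfbr3* was not tested.

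**Figure D4:**
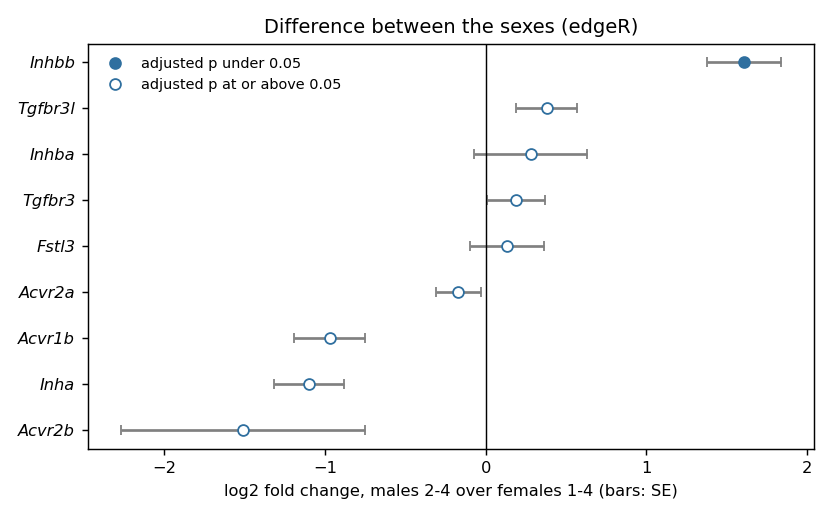
Log2 fold change of male replicates 2 to 4 over female replicates 1 to 4 with its standard error, for the 9 genes that passed the filter on low counts. *Inhbb*, at 1.61, had an adjusted p under 0.05 (filled point).

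Male replicate 1 departed from the other males most in *Inha*. *Inha* was 64.4 CPM there, with 1474 counts, against at most 13.1 CPM in the other males and at most 25.6 CPM in the females. *Inhba* at 35.5 CPM and *Acvr2a* at 34.0 CPM were also above the other 7 samples, though close to the highest of them, 31.8 and 33.9 CPM. *Acvr2b* at 6.55 CPM and *Acvr1b* at 33.9 CPM lay above the other males and inside the females. *Inhbb* at 129 CPM, *Fst* at 1.05 CPM and *Tgfbr3l* at 2474 CPM lay inside the range of the other males, and *Fstl3* at 18.8 CPM and *Tgfbr3* at 200 CPM below it. Of the 9 genes tested, 7 lay outside the range of the other males and 3 outside that of the other 7 samples. Over all genes tested these shares were 69.9% and 39.8%. The 5 genes above the other males compare with 35.3% of all genes, and the 3 above the other 7 samples with 20.7%. Its log2 ratio of *Inha* to *Inhbb* was 0.52, above those of the females. In this sample the gonadotrope markers summed to 28423 CPM, and their part in these values was not tested.

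The activin pathway was described further by 35 other genes on a list chosen by function. Of these, 30 were tested and 3 passed, with males higher for 1 and females for 2, beside 2.34% of all genes tested. The gene higher in males was *Fshb*, the target of activin in gonadotropes. It was 30469, 30905 and 16894 CPM in male replicates 2 to 4, and 1430, 3086, 1402 and 5699 CPM in the females. Its log2 fold change was 3.12 (standard error 0.56, adjusted p = 0.0449 in the edgeR test), and no sample of one sex reached the other. *Gdf11*, a ligand that uses the same type II receptors as activin, was 25.4, 22.3 and 21.6 CPM in the males compared and 105, 69.4, 96.8 and 94.2 CPM in the females. Its log2 fold change was −2.02 (standard error 0.18, adjusted p = 0.00875 in the edgeR test), the largest fall in males among the 30 genes. It also passed in the edgeR test whenever a sample was left out, with an adjusted p of at most 0.0367. *Tgif1*, a co-repressor that acts on SMAD proteins, was between 66.4 and 72.4 CPM in these males and between 100 and 129 CPM in the females (log2 fold change −0.75, standard error 0.14, adjusted p = 0.0457 in the edgeR test). *Tgif1* lost this call whenever a sample was left out, and *Fshb* lost it except without female replicate 4.

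Of the 11 transducers and their inhibitors, *Tgif1* alone passed in the edgeR test. *Smad3*, which carries the activin signal to the *Fshb* promoter, was 76.1 ± 13.3 CPM (SD, n = 3) in males and 147 ± 24.4 CPM (SD, n = 4) in females, with an adjusted p of 0.0529 from edgeR. *Foxl2*, its partner there, was 49.8 ± 13.9 CPM (SD, n = 3) in males and 94.6 ± 15.3 CPM (SD, n = 4) in females, with an adjusted p of 0.0779 from edgeR. The sexes did not overlap in either gene. Of the 6 other receptors and the 6 co-receptors and antagonists tested, 0 passed in the edgeR test. Over the 30 genes the median log2 fold change was 0.09, against −0.03 over all genes tested, and 14 of the 30 did not overlap between the sexes, beside 22.3% of all genes tested. The median over the 9 genes of the main set was 0.13. Some values of this list are uncertain. *Smurf1*, a ubiquitin ligase, had 1 and 2 counts in female replicates 2 and 4 and between 549 and 961 in the other samples, and *Tgfbr1* had 180 and 133 counts in female replicate 3 and male replicate 3 against 755 to 2065.

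**Figure D5:**
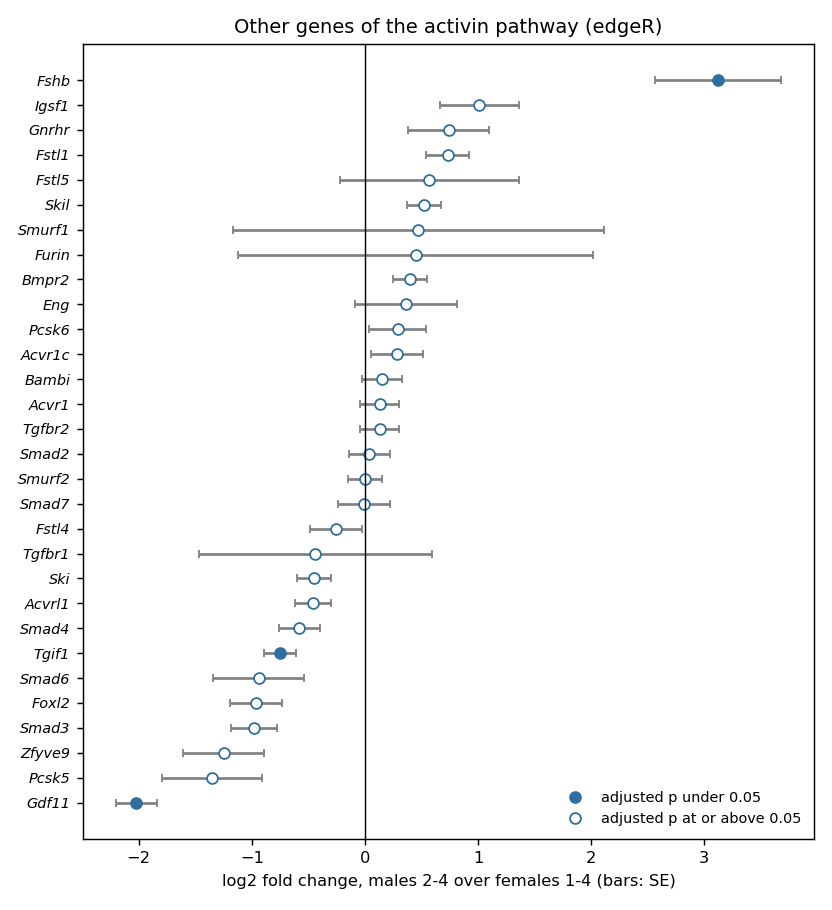
Log2 fold change of male replicates 2 to 4 over female replicates 1 to 4 with its standard error, for 30 other genes of the activin pathway that passed the filter on low counts. Filled points, adjusted p under 0.05, are *Fshb* at 3.12, *Tgif1* at −0.75 and *Gdf11* at −2.02, and the wide bars of *Smurf1*, *Furin* and *Tgfbr1* go with libraries that differ many-fold within a sex.

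The genes whose pattern over the 7 samples was most like that of *Inhbb*, *Acvr2b* and *Inha*, the 3 with the largest fold change among the 9 genes tested (*Fst*, with a larger fold, was not among these), were sought by the root mean square difference of centred log2(CPM + 1), among 9792 genes with a mean of at least 10 CPM (9793 for *Acvr2b*). For *Inhbb* these were *Fam110c* (0.176), *Frmpd1* (0.195) and *Gata2* (0.197), a transcription factor gene of gonadotropes and thyrotropes that was 248 CPM in males and 65.6 CPM in females. For *Inha* they were *Smad3* (0.115), *Slc22a4* (0.124) and *Gtpbp2* (0.132). For *Acvr2b*, whose pattern is set by female replicate 2, they were *Hykk* (0.331), *Letmd1* (0.370) and *Cdh4* (0.382), each a poorer match. These distances are descriptions over 7 samples that share the difference between the sexes.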

How the data were processed

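RNA of sorted EGFP-positive cells was sequenced as paired-end libraries made with a kit for low input. The authors deposited unnormalized read counts per gene entry for 8 samples. According to the methods and the submitters' processing notes, reads were trimmed with cutadapt, mapped to mm10 with STAR and counted with featureCounts. The annotation is not given in the sources used here. Of the 55523 entries, 28933 carry MSTRG names, as StringTie assembly gives, each entry carries a symbol, and 108 had exactly 1 count in all 8 samples, so counts may be estimates made from assembled transcripts. This can move reads between symbols and limits the level of any single entry.

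Male replicates 2 to 4 and female replicates 1 to 4 were compared with edgeR 4.0.16 (quasi-likelihood test, TMM, filterByExpr, Benjamini-Hochberg adjustment over all genes tested, threshold 0.05) in R 4.3.3, and the standard error is the log2 fold change over the square root of F. The script was tested on simulated counts. CPM for levels used TMM factors over 8 samples, and lengths are merged GENCODE M21 exons. Exact permutation tests used the difference of mean log2(CPM + 1) over 35 splits. Alternatives were DESeq2 1.42.0, other scalings and filters, all 8 samples, a replicate block, sums over shared loci and leaving out each sample. Named genes are the 10 genes, the pathway genes past the threshold or with the largest change, and the nearest 3 genes by pattern. Other pathway genes that are named, and genes that share a locus, were added after their values were seen. The genes and lists were chosen with earlier results of these data known.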

Additional observations from a re-analysis of the deposited data

Results flagged for a closer look

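In groups of 4 samples, a sample was singled out when its gap to the nearest other sample exceeded the 95% limit of Dixon's test. Of 54 groups examined, 10 had such a sample. A rate of 5% would give about 2.70, but it holds for independent groups of normally distributed values. These groups share samples and genes, and *Inha* in male replicate 1 enters both as a level and in a ratio. Several of the departures come from that sample, which the study left out. For *Fst*, the females other than replicate 3 had equal values, so any other value there is singled out. The number of such groups therefore cannot be compared with chance.

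In male replicate 1, *Inha* stood at 64.4 CPM and the other males at 7.99 to 13.1 CPM, and the log2 ratio of *Inha* to *Inhbb* was 0.52 against −2.61 to −2.33. *Acvr2b* was 6.55 CPM there against 1.02 to 1.77 CPM. The summed gonadotrope markers of the same sample were 28423 CPM against 67930 to 75717 CPM. *Acvr2b* was also high in female replicate 2, at 8.88 CPM against 1.08 to 2.18 CPM, where *Prl*, the lactotrope marker, was 18125 CPM against 4671 to 6937 CPM.

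*Fst* was low in male replicate 2, with 0.197 CPM beside 0.954 to 1.06 CPM in other males, and present in female replicate 3, with 0.246 CPM beside 0 in the other females. *Tgif1* was low in male replicate 3, with 66.4 CPM beside 71.4 to 72.4 CPM. The stromal markers summed to 167 CPM in female replicate 1 against 114 to 118 CPM. The cause of these departures was not tested.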

How the results depend on the processing

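Across the genome, 471 genes passed between the sexes, and 2329 with DESeq2, 808 with library size only, 177 with no filter beyond 1 count, 67 with all 8 samples and 0 with the replicate block, while leaving out each sample gave 88 to 171. Of the 10 genes, 1 passed, and 3 with DESeq2 or library size only, 2 with upper-quartile factors, at least 10 counts in every sample or sums over shared loci, 0 with the replicate block and 0 to 1 when each sample was left out. The additional genes were *Inha* in each of these 5 settings and *Acvr1b* with DESeq2 and library size only. Of the pathway genes 3 passed, and 9 with DESeq2, 5 with library size only, 1 with no filter or all 8 samples, 0 with the replicate block and 1 to 2 when each sample was left out. Directions reversed for *Inha* with all 8 samples (0.12), *Inhba* without male replicate 3 (−0.0981, the lowest of −0.0981 to 0.506 over the samples left out), and *Fstl3* (−0.0803) and *Tgfbr3* (−0.0138) with library size only. The cause of these changes was not tested.

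Whether same-numbered samples of the sexes were handled together is not given in the sources used here. The deviations of same-numbered samples from their group means correlated at −0.0193, −0.00823 and −0.000805, and no male correlated best with the female of its number. Correlations over so few samples cannot show whether same-numbered samples shared a batch. With the replicate block the adjusted p of *Inhbb* was 0.227 at a log2 fold change of 1.61. At unadjusted p under 0.05, edgeR called *Inhbb*, *Inha* and *Acvr1b*, 3 of the 9 genes, both without the block (19.9% of all genes) and with it (14.7%). Low counts limit *Fst* and *Acvr2b*.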

Other observations

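*Igsf1*, once described as an inhibin-binding protein, had a mean of 98.8 ± 30.9 CPM in the 3 males compared and 47.9 ± 16.1 CPM in the 4 females (SD), without overlap, but did not pass (adjusted p = 0.176, edgeR). *Fstl1*, a more distant follistatin relative, was 116 ± 18.3 CPM and 68.4 ± 13.6 CPM (adjusted p = 0.0921, edgeR). *Inhbc* and *Nodal* were at 0 in each of the 8 samples, *Inhbe* had at most 10 counts and *Mstn* at most 6.

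Counts far below those of the other libraries were found in each sample, between 139 entries in male replicate 4 and 204 in male replicate 1. *Furin*, a convertase of activin precursors, had 1200 and 1125 counts in female replicate 3 and male replicate 2, and 16 to 168 counts in the other 6 samples. The cause of the low counts was not tested.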
